A study of Rattus norvegicus with 45 samples.

Results

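The 9 genes described here encode the salt transport machinery of the distal nephron: the cotransporters Slc12a1 and Slc12a3, the potassium channel Kcnj1, the regulators Klhl3 and Wnk1, the secreted protein uromodulin (Umod) and the 3 subunits of the epithelial sodium channel, Scnn1a, Scnn1b and Scnn1g. They were taken by symbol, 9 of the 20794 genes of the series, and each matched 1 gene identifier. The rule itself uses the symbols and no measured value. All animals were male spontaneously hypertensive rats (SHR), a strain with inherited high blood pressure, aged 8 weeks. For 30 days they were gavaged daily either with saline or with empagliflozin at 10 mg/kg, a blocker of the renal glucose transporter SGLT2. RNA was sequenced in 8 tissues, giving 45 libraries in 15 groups of 3. Kidney, lung, brain, aorta, both kinds of fat (white and brown) and the libraries labelled V had vehicle and empagliflozin groups, and atrium had an empagliflozin group. Vehicle atrium was not analysed here. The series compared the transcriptional response to the drug across tissues.

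Along the distal nephron the thick ascending limb takes up sodium, potassium and chloride through the furosemide-sensitive cotransporter encoded by Slc12a1. Kcnj1 encodes ROMK, the channel that returns potassium to the lumen there and secretes it further downstream. Umod, the most abundant protein of normal urine, is made by the same cells. In the distal convoluted tubule the thiazide-sensitive cotransporter encoded by Slc12a3 is activated by a kinase cascade in which WNK kinases, Wnk1 among them, switch on SPAK. Klhl3 directs WNK kinases to degradation with the ubiquitin ligase scaffold Cul3. Downstream, in the connecting tubule and collecting duct, aldosterone acts through the mineralocorticoid receptor on the sodium channel built from Scnn1a, Scnn1b and Scnn1g. Gene-level values cannot separate the full-length Wnk1 transcript from the shorter kidney form that lacks most of the kinase domain.

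The values were FPKM (fragments divided by transcript length and by the library's mapped fragments), which account for length, so that levels of different genes can be set side by side. Their sum per library lay between 414248 and 824205. The number of reads per library is unknown, so no counting interval can be given. The label of the V libraries names liver whereas the series design names ventricle. Their summed cardiomyocyte markers (6 genes) lay between 42630 and 47660 FPKM and their hepatocyte markers (6 genes) between 39.4 and 47.7 FPKM, so these are called the libraries labelled V. Summed smooth muscle markers in aorta ranged from 316 to 21130 FPKM, and fat and brown fat markers were also present there. The empagliflozin kidney library 2 differed from the other 2 of its arm in most genes described below, and results that rest on it are given with and without it.

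In vehicle rats 7 of the 9 transcripts had their highest mean level in kidney. As the genes were chosen for their renal role, the levels are a description with no test. Umod was the most abundant at 3604 ± 61.2 FPKM (SD, n = 3), above Slc12a1 at 209.2 ± 17.2, Kcnj1 at 122 ± 6.43 and Slc12a3 at 93.5 ± 42.1 FPKM. The channel subunits followed at 54.9 ± 14.3 FPKM for Scnn1b, 39.2 ± 6.07 for Scnn1a and 35.1 ± 7.88 for Scnn1g, with Wnk1 at 39.6 ± 7.92 FPKM. Klhl3, the adaptor of the ubiquitin ligase, was the least abundant in kidney at 3.03 ± 1.07 FPKM. The level of Umod was above that of any other member in every kidney library.

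The start regions of 4 members are shown because they span the breadth of expression seen here, from Umod and Slc12a3, which were low outside the kidney, through Scnn1b, found in kidney and lung, to Wnk1, found in every tissue. Each is the RefSeq start region on the rat build GRCr8, 250 bases before to 50 after the start, written 5′ to 3′ along the gene. The FPKM tables were made on another build, Rnor_6.0. Capitals mark TATAAA, the TATA box core, and TGTTCT, the reverse complement of AGAACA, the core recognised by the mineralocorticoid and glucocorticoid receptors. The regions are Umod at chr1:183260967-183261266, minus strand, Slc12a3 at chr19:10675001-10675300, minus strand, Scnn1b at chr1:185861126-185861425, plus strand, and Wnk1 at chr4:154926098-154926397, minus strand.
Umod: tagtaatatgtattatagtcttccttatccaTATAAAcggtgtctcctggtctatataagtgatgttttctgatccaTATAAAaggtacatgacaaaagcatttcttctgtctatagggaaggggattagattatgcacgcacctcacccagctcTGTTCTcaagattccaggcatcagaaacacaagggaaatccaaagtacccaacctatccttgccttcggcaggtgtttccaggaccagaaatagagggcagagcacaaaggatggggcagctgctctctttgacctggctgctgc
Slc12a3: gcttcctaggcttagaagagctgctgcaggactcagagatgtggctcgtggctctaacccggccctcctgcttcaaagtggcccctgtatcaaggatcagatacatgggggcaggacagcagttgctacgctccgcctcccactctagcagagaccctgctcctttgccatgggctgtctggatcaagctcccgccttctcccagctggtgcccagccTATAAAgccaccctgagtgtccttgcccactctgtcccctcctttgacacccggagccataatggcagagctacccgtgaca
Scnn1b: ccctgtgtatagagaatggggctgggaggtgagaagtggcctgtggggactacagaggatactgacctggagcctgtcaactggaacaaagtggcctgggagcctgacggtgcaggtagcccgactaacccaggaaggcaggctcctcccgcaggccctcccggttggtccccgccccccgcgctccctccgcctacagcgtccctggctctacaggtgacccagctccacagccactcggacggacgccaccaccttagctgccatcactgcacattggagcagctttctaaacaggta
Wnk1: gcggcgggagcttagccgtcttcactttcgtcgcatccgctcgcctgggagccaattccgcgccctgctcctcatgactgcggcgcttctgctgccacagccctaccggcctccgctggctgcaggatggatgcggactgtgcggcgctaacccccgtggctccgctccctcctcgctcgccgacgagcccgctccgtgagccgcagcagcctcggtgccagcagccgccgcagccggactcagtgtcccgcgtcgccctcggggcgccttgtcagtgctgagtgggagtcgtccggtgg

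Start regions were given for 8 of the 9 members. The motif AGAACA was searched on both strands, as were TATAAA and the HNF1 core GTTAAT, and no match overlapped another. TATAAA or its reverse complement was in 14.2% of all 33469 start regions of the table. It began at position -32 of Slc12a3, counted from the transcription start, at -219 and -173 of Umod and at -41 of the first Kcnj1 region. AGAACA or its reverse complement was in 20.7% of all regions. It was found in Umod at -95, in Slc12a1 at 31, in the first Kcnj1 region at -27 and in the second at -201 and -23. Klhl3, Wnk1, Scnn1b and Scnn1g held none of the 3 motifs in this window. GTTAAT, present in 7.45% of all regions, was in none of the members' regions. CpG dinucleotides numbered 2 in each Slc12a1 region, 3 and 8 in the Kcnj1 regions, 3 in Umod, 7 in Slc12a3, 12 in Scnn1b, 15 in Klhl3, 21 in Scnn1g and 36 in Wnk1, against a median of 7 over the whole table. Wnk1, with the most CpG of the members, was also the transcript with the widest expression, a description over 8 genes.

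Slc12a1, Umod and Kcnj1 were nearly confined to kidney. In the other 6 vehicle tissues the group means were at most 0.0467 FPKM for Slc12a1, 0.0833 for Kcnj1 and 0.777 for Umod. Those tissues overlapped one another in nearly every comparison of neighbours. Slc12a3 was next highest in the libraries labelled V, at 0.48, 0.72 and 0.67 FPKM, against 47.1, 104 and 129 in kidney. Scnn1b and Scnn1g were found in kidney and lung, where they were 16.3 ± 2.13 and 15.4 ± 2.77 FPKM, and stayed below 1 FPKM on average elsewhere.

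Scnn1a and Klhl3 were higher outside the kidney. Scnn1a was 80.5, 94.4 and 154 FPKM in vehicle lung against 32.3, 43.8 and 41.5 FPKM in vehicle kidney, with no overlap. The airway and alveolar epithelium uses the same channel to clear fluid. Klhl3 was 5.84, 4.33 and 4.19 FPKM in vehicle brain against 1.80, 3.62 and 3.67 FPKM in vehicle kidney, also without overlap. Wnk1 was found in every tissue, from 12.2 ± 6.36 FPKM in aorta to 24.9 ± 0.659 in lung and 39.6 ± 7.92 in kidney. Kidney and lung stood apart from each other and from the rest in Wnk1, while V, brain, white fat, brown fat and aorta overlapped as neighbours in that order.

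**Figure D1:**
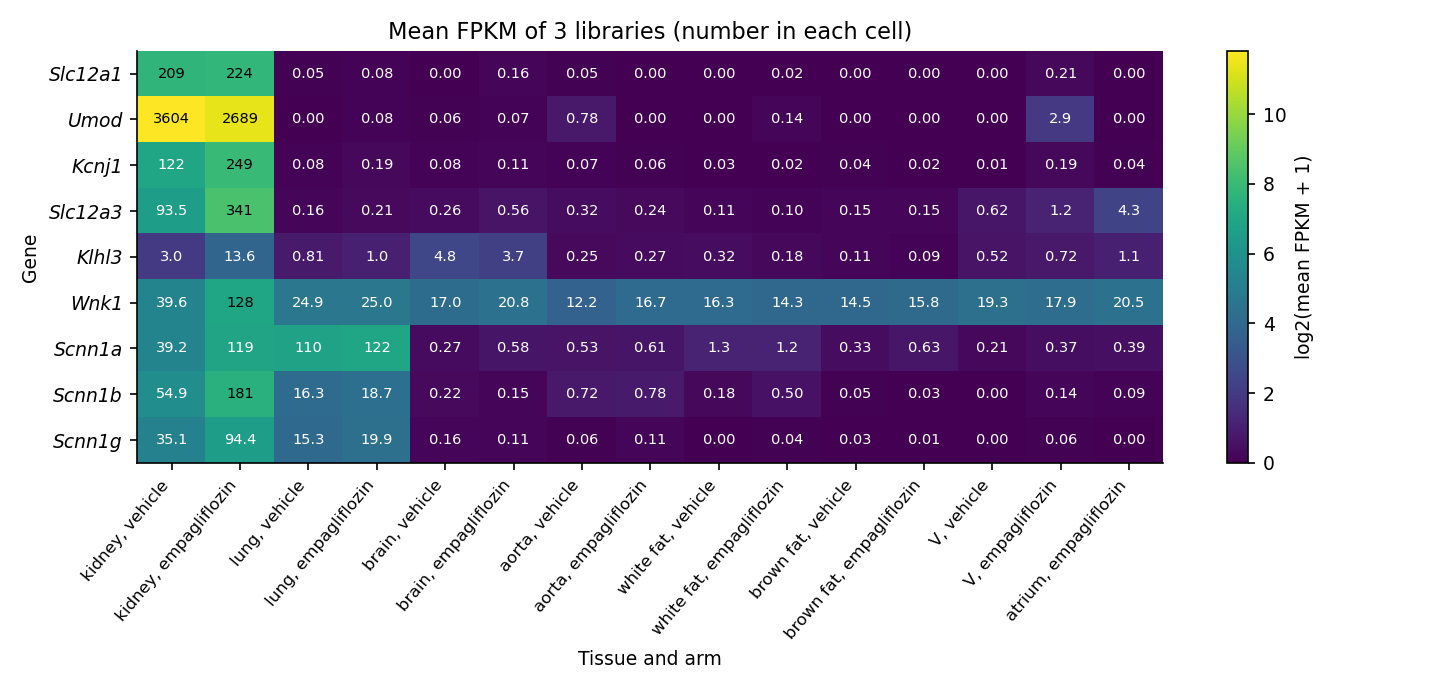
Mean FPKM of each gene (rows) in each tissue and arm (columns), with the mean of 3 libraries printed in each cell and colour on a log2(mean FPKM + 1) scale. Slc12a1 and Kcnj1 are near 0 outside the kidney columns, Umod reaches 2.85 FPKM in treated V, Scnn1a is highest in lung in vehicle rats, and Wnk1 is present in every column.

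The comparison of arms in kidney asks whether the drug, which acts upstream in the proximal tubule, went with a different level of these transcripts downstream. The fitted change is empagliflozin minus vehicle on the log2(FPKM + 1) scale, which understates the change of low genes. The median of all genes tested in kidney was 0.10 on this scale and -0.01 after median-ratio scaling, so each change is given relative to the median of all genes (relative log2 change), while the p-values are those of the fit itself. All tests are two-sided and from limma, with Benjamini-Hochberg adjustment over all genes tested. Kidney pieces are bulk samples, in which fewer cells of a type and less RNA per cell cannot be told apart.

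Of the 9 members, 7 were higher and 2 lower in the empagliflozin kidneys, with a median relative log2 change of 1.25. The 7 were Slc12a3, Kcnj1, Klhl3, Wnk1 and the 3 channel subunits, and the 2 were Slc12a1 and Umod. None of the 9 passed an adjusted p of 0.05 in limma, nor did any of 12848 genes (0%). At an unadjusted p under 0.05, 6 members were higher, where 8.47% of all genes tested were, and 0 were lower, where 3.24% were. All 3 empagliflozin libraries were above all 3 vehicle libraries for 3 members, Kcnj1, Klhl3 and Wnk1, where 13.6% of all genes stood apart in that direction. The lowest adjusted p of the 9 was 0.418.

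**Figure D2:**
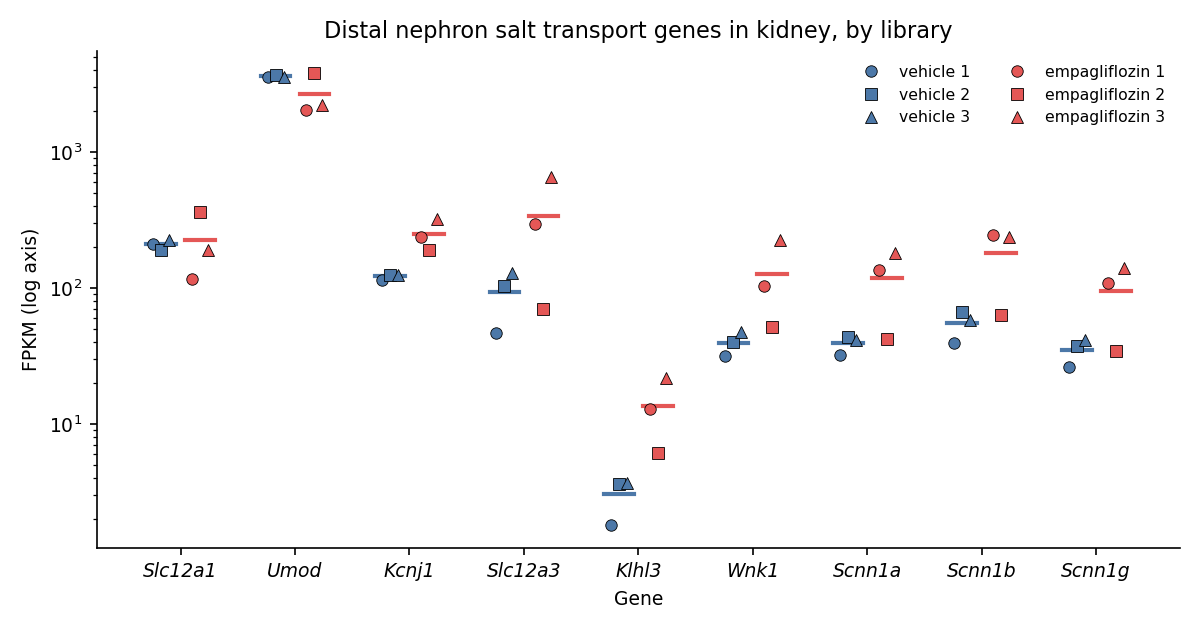
FPKM of each gene in the 6 kidney libraries on a log axis, with vehicle in blue, empagliflozin in red, a symbol per replicate number and a bar at the mean of 3. Empagliflozin libraries 1 and 3 lie above all vehicle libraries for 7 genes, whereas library 2 lies close to vehicle for Slc12a3 and the 3 channel subunits and is highest for Slc12a1 and Umod.

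The thick ascending limb cotransporter Slc12a1 was 210.1, 192 and 226 FPKM in vehicle kidneys and 117, 364 and 192 FPKM under empagliflozin. The arms overlapped, with the treated libraries on either side of the vehicle range. The relative log2 change was -0.15 ± 0.37 (SE, n = 3 per arm) with a limma adjusted p of 0.948, and it turned to 0.21 without empagliflozin library 1. Umod was 3596, 3668 and 3546 FPKM in vehicle and 2037, 3794 and 2235 FPKM under empagliflozin. Libraries 1 and 3 were below all vehicle libraries, at 0.565 and 0.620 times the vehicle mean, and library 2 was above them. The relative log2 change was -0.58 ± 0.29 with a limma adjusted p of 0.458.

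The channel gene Kcnj1 was 114, 126 and 125 FPKM in vehicle and 237, 190.5 and 319 FPKM under empagliflozin. The arms did not overlap. Its ratio of means was 2.04, its relative log2 change 0.89 ± 0.19, the unadjusted limma p 0.0012 and the adjusted p 0.418. Kcnj1 had the smallest standard error of the 9. It is expressed in the thick ascending limb and in the segments beyond it, so its level in whole kidney is a sum over these.

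The distal convoluted tubule cotransporter Slc12a3 had the largest standard error of the 9 on the log2 scale. It was 47.1, 104 and 129 FPKM in vehicle and 297, 69.8 and 657 FPKM under empagliflozin. Libraries 1 and 3 were 3.18 and 7.03 times the vehicle mean, and library 2 was 0.747 times that mean, inside the vehicle range. The relative log2 change was 1.36 ± 0.79, with an unadjusted limma p of 0.106 and an adjusted p of 0.436.

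Both regulators of that cotransporter were higher in every treated library. Klhl3 was 1.80, 3.62 and 3.67 FPKM in vehicle and 12.8, 6.17 and 21.7 FPKM under empagliflozin, a ratio of means of 4.48. Its relative log2 change of 1.64 ± 0.43 was the largest among the members, with an unadjusted limma p of 0.00465. Wnk1 was 31.4, 40.0 and 47.3 FPKM in vehicle and 104, 51.6 and 227 FPKM under empagliflozin. Its lowest treated library was just above the highest vehicle library. The relative log2 change of Wnk1 was 1.33 ± 0.49 with an unadjusted limma p of 0.0217. The adjusted p of both was 0.418.

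The 3 subunits of the sodium channel shared a pattern across the 6 kidney libraries. Scnn1a was 32.3, 43.8 and 41.5 FPKM in vehicle and 135, 42.2 and 181 FPKM under empagliflozin. Scnn1b was 39.2, 67.1 and 58.4 FPKM in vehicle and 244, 63.7 and 236 FPKM under empagliflozin. Scnn1g was 26.35, 37.5 and 41.6 FPKM in vehicle and 109, 34.3 and 139 FPKM under empagliflozin. In each case libraries 1 and 3 were above every vehicle library and library 2 lay inside the vehicle range. The relative log2 changes were 1.25 ± 0.50, 1.41 ± 0.52 and 1.10 ± 0.50, with unadjusted limma p-values of 0.0295, 0.0223 and 0.0456 and an adjusted p of 0.418 each.

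Without empagliflozin kidney library 2, 7 members passed an adjusted p of 0.05 in limma, where 636 of 12977 genes did (4.9%). They were all but Slc12a1 and Umod, which were then at -0.63 and -0.91 with limma adjusted p-values of 0.186 and 0.106, Umod with an unadjusted p of 0.0195. The relative log2 changes of the 7 were 2.19 for Slc12a3, 2.02 for Klhl3, 1.99 for Scnn1b, 1.82 for Scnn1a, 1.80 for Wnk1, 1.66 for Scnn1g and 1.01 for Kcnj1. Library 2 was the lowest treated library for each of these 7 and was singled out after its values were seen. Leaving it out therefore raises their treated means, and the calls without it are a description. Leaving out any other kidney library left 0 members called. The number of members at an unadjusted p under 0.05 was then 2 without empagliflozin library 1, 3 without empagliflozin library 3, and 2 without vehicle library 1. Over all genes tested, 855 of 12891, 769 of 12694 and 631 of 12895 were under that p in these 3 fits. Vehicle library 1 was the lowest of all 6 kidney libraries for 7 of the 9 members. With all tissues in 1 fit, which estimates the spread over all groups, 6 members were called in kidney, Kcnj1, Klhl3, Wnk1 and the 3 subunits, where 1.3% of 16844 genes were.

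The balance of the 2 cotransporters was taken per library as Slc12a3 over Slc12a1. The ratio was 0.224, 0.543 and 0.572 in vehicle kidneys and 2.54, 0.192 and 3.43 under empagliflozin. In treated libraries 1 and 3 the thiazide-sensitive cotransporter was thus the more abundant transcript, and in the other 4 kidney libraries it was not. The difference in log2 ratio was 1.53 with an exact permutation p of 0.4 (two-sided, n = 3 per arm, smallest possible 0.1). Without empagliflozin library 2, left out after its ratio was seen to be the lowest, the difference was 2.84. The arms then stand fully apart, so the exact permutation p could only be 0.1, the smallest that 2 against 3 libraries allow. Without empagliflozin library 1 or 3 the difference was 0.98 or 0.76, each with an exact permutation p of 0.9.

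The proportions of the sodium channel subunits differed less between kidney libraries than their sum. In vehicle kidney Scnn1a made up 30.6 ± 2.08% of the summed FPKM of the 3 subunits, Scnn1b 42.2 ± 2.67% and Scnn1g 27.2 ± 2.07% (SD, n = 3). In empagliflozin kidney the shares were 30.1 ± 2.4%, 45.9 ± 3.77% and 24 ± 1.4%. The Scnn1g share was lower in every treated kidney library (22.4%, 24.4% and 25.1%) than in any vehicle library (26.9%, 25.3% and 29.4%), while the other 2 shares overlapped between arms. The sum was 129 ± 27.4 FPKM in vehicle and 395 ± 223 FPKM in treated kidneys. In vehicle lung Scnn1a made up 76.7 ± 5.23% of a sum of 141 ± 40.3 FPKM, with 12.3% for Scnn1b and 11.1% for Scnn1g. Treated lung had 75.1 ± 5.09% Scnn1a of a sum of 161 ± 45.6 FPKM. Summed over subunits, vehicle kidney and vehicle lung were within their spread of each other, and their makeup differed.

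**Figure D3:**
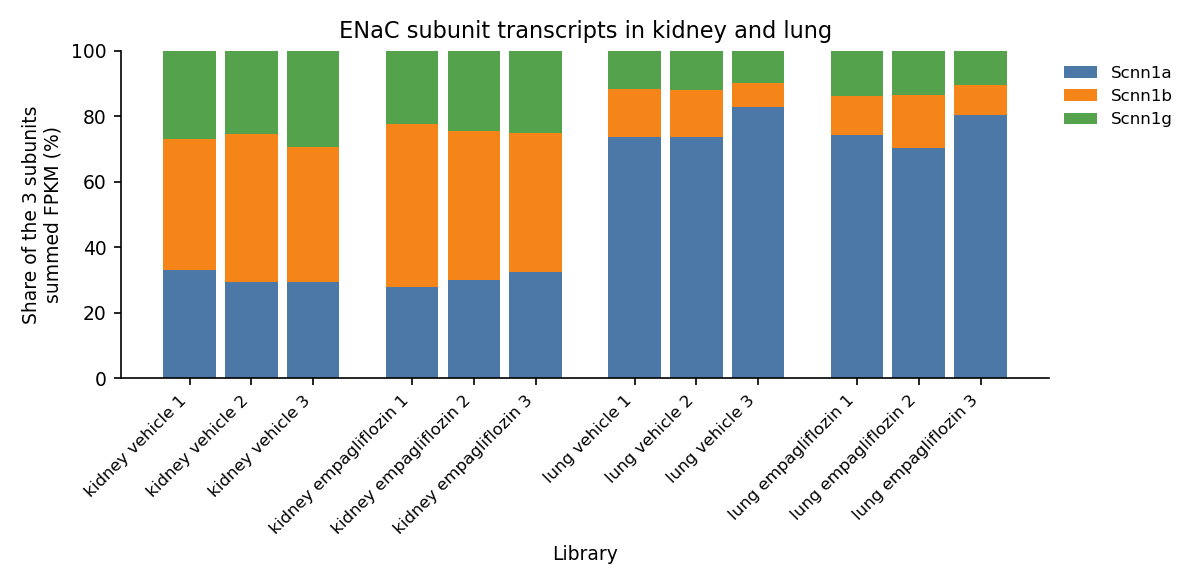
Share of each subunit in the summed FPKM of Scnn1a, Scnn1b and Scnn1g, stacked to 100% for each kidney and lung library of both arms. Scnn1a makes up 27.7% to 33% in the 6 kidney libraries and 70.4% to 82.7% in the 6 lung libraries.

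Lists of other genes of the pathway and of neighbouring cell types were read in the same fit. Of the 63 genes in 6 lists of the distal pathway and its cells, 60 were tested in kidney, 47 were higher and 13 lower relative to all genes. At an unadjusted limma p under 0.05, 16 were higher and 0 lower, and 0 passed adjustment. Of all genes tested in kidney, 8.47% were higher and 3.24% lower at that p, which is the background for the counts of each list below. By construction the median relative change of all genes tested is 0.

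Among 11 thick ascending limb genes, 8 were higher and 3 lower with a median relative log2 change of 0.31, and 2 had an unadjusted p under 0.05, among them Kcnj16, a potassium channel subunit, at 0.31. Other genes of the list differed in direction, with Cldn10, a tight junction claudin, at -0.48 and Egf, the growth factor precursor, at 0.37. Cldn16, Cldn19 and Casr were at -0.08, -0.12 and 0.09, and all of these had an unadjusted p above 0.05. Among 10 distal convoluted tubule genes tested, 8 were higher with a median of 0.60. Calb1, the calcium buffer of the late distal tubule, was 51.3, 64.5 and 87.2 FPKM in vehicle and 796, 199.7 and 1106 FPKM under empagliflozin. Slc8a1, the basolateral sodium-calcium exchanger, was 6.04, 6.79 and 10.0 FPKM in vehicle and 74.0, 23.5 and 99.1 FPKM under empagliflozin. For both genes every treated library, number 2 included, was above every vehicle library, and the relative log2 changes were 2.96 and 2.65. The potassium channel gene Kcnj10, the magnesium transport gene Cnnm2 and the calcium channel gene Trpv5 had relative log2 changes of 1.37, 0.68 and 1.30, each at an unadjusted p under 0.05. S100g, another calcium buffer, had a relative log2 change of -0.92 at an unadjusted p above 0.05, with every treated library below every vehicle library. In that direction 714 of 12848 genes tested in kidney stood apart.

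In the kinase cascade 8 genes were tested, 6 were higher and the median was 0.04. Stk39, which encodes SPAK, was 13.9, 16.25 and 16.2 FPKM in vehicle and 28.3, 20.2 and 47.9 FPKM under empagliflozin, with a relative log2 change of 0.82 and an unadjusted limma p of 0.0142. Wnk4 had a relative log2 change of 0.67 with overlapping arms and an unadjusted p above 0.05. Oxsr1, the kinase most like SPAK, and Cul3, the scaffold that works with Klhl3, were at 0.06 and 0.17 relative to all genes. Klhl2, the closest relative of Klhl3, was at 0.02.

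Of 12 genes that act on the sodium channel 6 were higher and 6 lower, with a median of 0.02. Those with an unadjusted p under 0.05 were Hsd11b2, which protects the mineralocorticoid receptor from glucocorticoids, at 1.53, Nr3c2, the receptor itself, at 0.75, and the protease gene St14 at 0.63. Sgk1, the kinase gene induced by aldosterone, was 44.2, 127 and 86.6 FPKM in vehicle and 78, 43.8 and 170.2 FPKM under empagliflozin, with a relative log2 change of -0.02 ± 0.55. Tsc22d3, induced by corticosteroids, was at -0.23, and Prss8, which encodes the channel-activating protease prostasin, at -0.54. Nedd4l, the ligase that removes the channel from the membrane, was at 0.06.

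All 9 principal cell genes and all 10 intercalated cell genes were higher relative to all genes, with medians of 0.90 and 0.65. Among principal cell genes 4 had an unadjusted p under 0.05, the water channels Aqp4 at 1.78 and Aqp2 at 1.06, the vasopressin receptor Avpr2 at 1.30 and the pump regulator Fxyd4 at 0.90. Aqp2 was 327, 443 and 368 FPKM in vehicle and 1204, 419 and 1189 FPKM under empagliflozin, with libraries 1 and 3 above every vehicle library and library 2 inside the vehicle range, as for each channel subunit. Among intercalated cell genes 1 did, the ammonia transporter Rhcg at 1.04. Library 2 was the lowest treated library for every gene of both lists, so leaving it out raises every treated mean. The counts of 9 of 9 and 10 of 10 without it, an alternative chosen after the data were seen, therefore add no evidence.

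Markers of other parts of the kidney also differed between the libraries. All 6 podocyte markers were higher relative to all genes, 4 of them at an unadjusted p under 0.05, with a median of 1.14. Podxl, which encodes podocalyxin, was at 1.17, the phosphatase gene Ptpro at 1.38 and Synpo, which encodes synaptopodin, at 1.12. Their sum ranged from 37.6 to 127 FPKM in vehicle and from 103 to 306 FPKM in treated kidneys. Of 10 proximal tubule genes tested 9 were lower with a median of -0.54, and Slc22a6, an organic anion transporter, had an unadjusted p under 0.05 at -0.56. The sum of the proximal tubule list ranged from 5923 to 7496 FPKM in vehicle and from 3438 to 5085 FPKM in treated kidneys, without overlap. Miox made up most of each sum. Gene by gene, Miox, Slc34a1 and Slc22a6 were lower without overlap, as were 714 of 12848 genes tested, and the arms overlapped for the others. The medulla genes, led by the small heat shock protein gene Cryab, summed to 772, 313 and 628 FPKM in vehicle and 323, 797 and 177 FPKM under empagliflozin. Of the 6 tested, 3 were higher and 3 lower, with Akr1b1, which encodes aldose reductase, at 0.78 and an unadjusted p under 0.05. The treated libraries with the highest levels of the channel subunits, numbers 1 and 3, had the lowest medulla sums of their arm. Vehicle library 1, the lowest for most members, had the highest of its arm. Cryab made up most of each sum, and the list did not share 1 order. Slc6a6 followed the sum, at 58.0, 21.0 and 46.4 FPKM in vehicle and 19.3, 51.0 and 16.2 under empagliflozin. Akr1b1 ran the other way, at 8.26, 20.1 and 12.6 FPKM in vehicle and 24.7, 16.6 and 36.2 under empagliflozin. The part of tissue composition in the differences between arms was not tested. Of 11 lung epithelium markers 5 were at 0 in all kidney libraries, among them the surfactant protein genes Sftpc, Sftpb and Sftpa1.

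**Figure D4:**
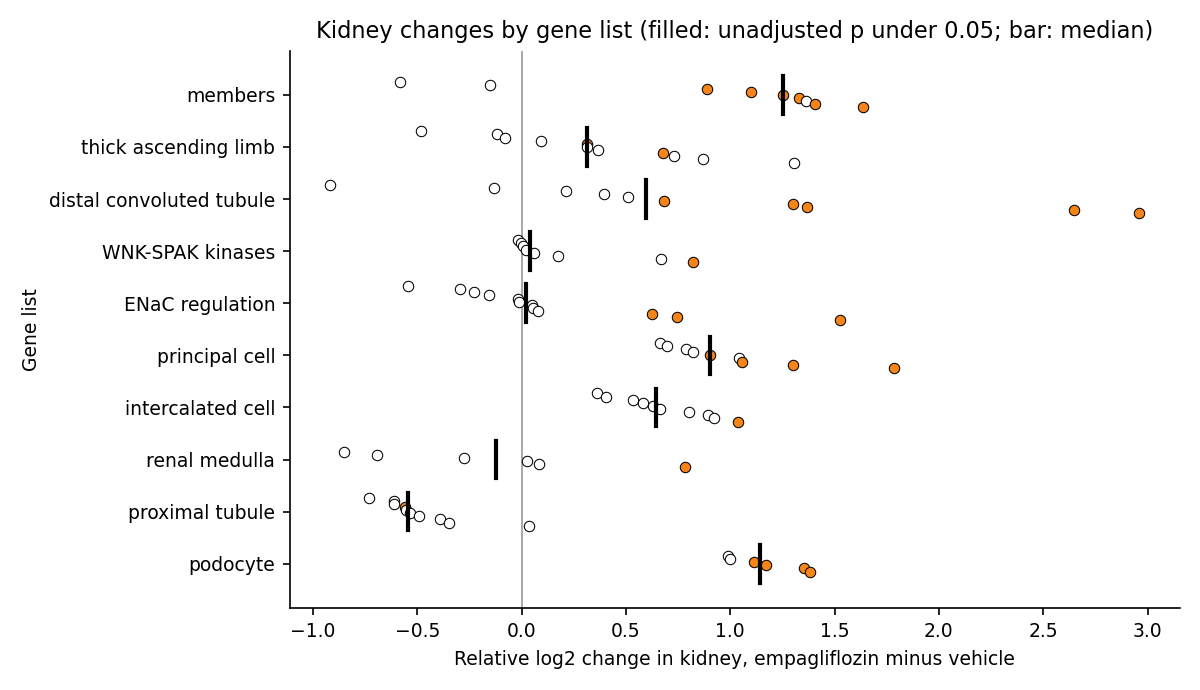
Relative log2 change in kidney (empagliflozin minus vehicle) of each gene tested, by gene list, with filled points for an unadjusted p under 0.05 and a bar at each list's median. The principal cell, intercalated cell and podocyte genes are all above 0, proximal tubule genes lie below 0 but for 1, and Umod and Slc12a1 are the 2 members below 0.

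Outside the kidney 5 members could be tested in lung, 3 in the libraries labelled V, 2 in brain, 2 in white fat and 1 each in aorta and brown fat, where a mean of at least 1 FPKM in an arm was required. Of these, Umod and Slc12a3 in V and Klhl3 in lung reached that level in the treated arm alone, so their values are given below without a test or left out. None passed adjustment in limma, and at an unadjusted p under 0.05 there was 0 among the others. The background of genes called was 0% in lung, brain and aorta, 0.0085% in brown fat, 0.00785% in white fat and 0.0085% in V. In lung the channel subunits were all slightly higher under empagliflozin, with relative log2 changes of 0.13 ± 0.31 for Scnn1a, 0.17 ± 0.11 for Scnn1b and 0.33 ± 0.17 for Scnn1g. Scnn1g was 12.65, 15.2 and 18.2 FPKM in vehicle lung and 21.3, 16.2 and 22.1 FPKM in treated lung, with an unadjusted limma p of 0.0728. With the replicate numbers as pairs in lung, the standard errors were 0.15, 0.10 and 0.14, and the unadjusted limma p-values 0.333, 0.114 and 0.0495, with adjusted p-values from 0.398 to 0.674. Scnn1b and Scnn1g were higher within 3 of 3 such pairs and Scnn1a within 2 of 3. The pairs were taken from these same data and not from the design, so the paired values are a description beside the unpaired fit. The Scnn1a difference turned to -0.15 without empagliflozin lung library 3 and to -0.05 without vehicle lung library 1. In brain Klhl3 was 5.84, 4.33 and 4.19 FPKM in vehicle and 4.58, 3.21 and 3.30 FPKM under empagliflozin, a relative log2 change of -0.35 ± 0.19 with an adjusted limma p of 0.982.

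Wnk1, the member tested in all 7 tissues, allows the closest comparison. In lung it was 24.4, 24.6 and 25.6 FPKM in vehicle and 24.8, 24.4 and 25.8 FPKM in treated rats, a relative log2 change of -0.02 ± 0.08. The same quantity was 0.19 ± 0.21 in brain, 0.37 ± 0.44 in aorta, -0.11 ± 0.35 in white fat, 0.08 ± 0.20 in brown fat and -0.10 ± 0.14 in V, against 1.33 ± 0.49 in kidney. The arms overlapped in all 6 tissues other than kidney.

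**Figure D5:**
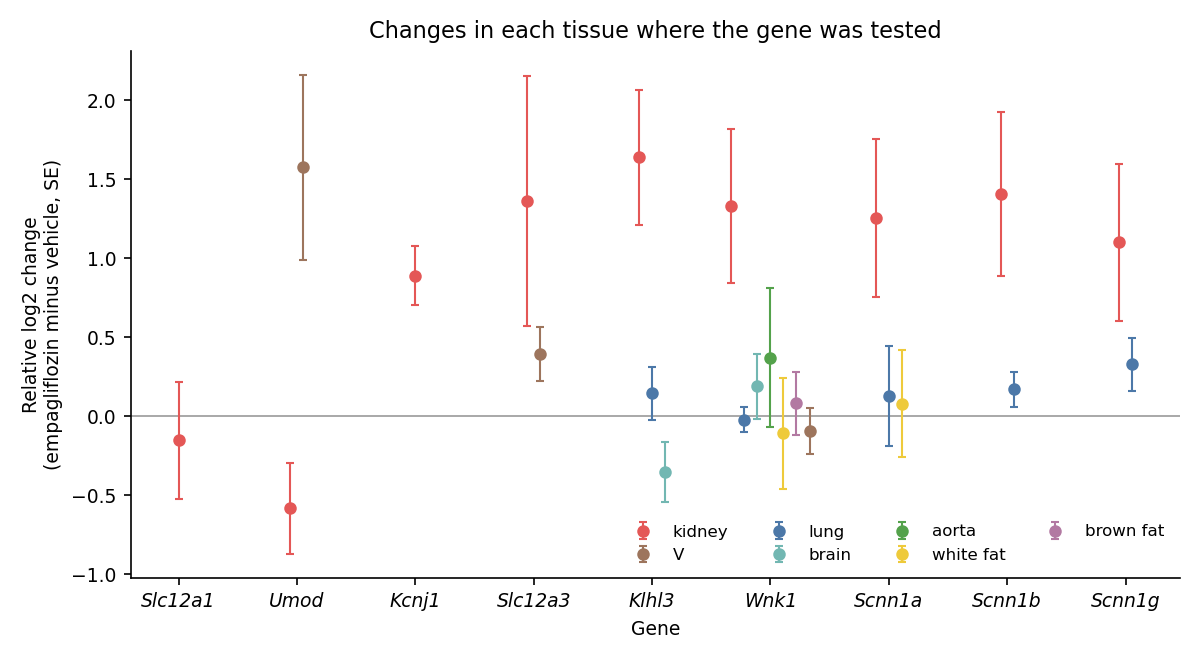
Relative log2 change (empagliflozin minus vehicle) with its standard error for each gene in each tissue where it passed the level required, 3 libraries per arm. For Wnk1 and the 3 channel subunits the kidney values, from 1.10 to 1.41, lie above those of every other tissue, while the Umod value in V rests on 2 libraries and, like Slc12a3 in V and Klhl3 in lung, on a level reached in the treated arm alone.

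Whether kidney differed from the other tissues was tested in 1 model of 42 libraries, as the change in kidney minus the mean change of the other 6 tissues. Such a difference passed for 2 members, Klhl3 at 1.76 ± 0.27 and Kcnj1 at 0.94 ± 0.14 (log2 scale, SE), both with a limma adjusted p of 0.000244, where 134 of 16822 genes passed (0.797%). Scnn1g lay at the threshold, at 1.13 ± 0.28 with an adjusted p of 0.05003. For Scnn1b, Wnk1, Scnn1a and Slc12a3 the differences were 1.41, 1.34, 1.20 and 1.35, with adjusted limma p-values of 0.084, 0.107, 0.156 and 0.192. For Umod and Slc12a1 they were -0.69 and -0.13, with adjusted limma p-values of 0.817 and 0.9997. Kcnj1 was at most 0.39 FPKM in any library of another tissue, so its difference is nearly that of kidney alone, while its standard error of 0.14 pools tissues near 0 and is below the 0.19 of the kidney fit, in which it was not called. With a pseudocount of 0.1 in place of 1 neither call held: the difference of Kcnj1 was 0.72 (adjusted p = 0.978 in limma) and that of Klhl3 2.03 (adjusted p = 0.29). Without empagliflozin kidney library 2, 8 members passed, where 714 of 16835 genes did. The 8 were all but Umod, with Slc12a1 at -0.55 among them. That library was left out after its values were seen. Slc12a1 was at most 0.41 FPKM in any library of another tissue, so its call also pools tissues near 0. In the kidney fit without the same library Slc12a1 was not called. For each gene the spread is pooled over the tissues here, tissues of a rat count as independent, and the changes are as fitted, not relative to the median.

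Outside the kidney, Umod above 1 FPKM was found in a few libraries, while traces of Slc12a1 and Kcnj1 were spread more widely. Umod was at 0 in 29 of the 39 libraries of other tissues and above 1 FPKM in 3. These were empagliflozin V libraries 2 and 3, at 3.32 and 5.23 FPKM, and vehicle aorta library 2 at 2.33 FPKM. The remaining empagliflozin V library and the 3 vehicle V libraries were listed at 0, so that neither a fold nor a test is given for Umod there. Relative to the vehicle kidney mean, Umod in the 3 libraries was at 0.0921%, 0.145% and 0.0647%. In the same 3 libraries Slc12a1 was at 0.10%, 0.191% and 0.0669%, and the median of the proximal tubule genes at 0.152%, 0.198% and 0.208%. Kcnj1 was at 0.0985%, 0.32% and 0.172% of its vehicle kidney mean there. Proximal tubule shares above 0.2% were also found in other libraries with Umod at or near 0, up to 2.41% in empagliflozin brain library 3. That library, with Umod at 0, had the highest Slc12a1 outside the kidney, 0.41 FPKM or 0.196%, and Kcnj1 at 0.181%. The source of these transcripts was not tested.

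Slc12a3 was also measured in the libraries with cardiomyocyte markers. It was 0.48, 0.72 and 0.67 FPKM in vehicle V, 0.80, 1.34 and 1.33 in treated V and 5.60, 4.25 and 3.05 FPKM in treated atrium, where Umod and Slc12a1 were at 0 in all 3 libraries. In V the 3 treated values were above the 3 vehicle values, all near the level required for a test, which the vehicle arm did not reach. Of 11771 genes tested in V, 613 stood apart in that direction. Summed cardiomyocyte markers in atrium lay between 43420 and 45410 FPKM, in the range of V.

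Genes with the most similar pattern were ranked by Pearson's r of log2(FPKM + 1) over the 15 group means, among 16844 genes. The groups share libraries, scaling and the contrast of kidney with the rest, so r is a description. For Slc12a1 the closest were Cltrn, Acsm2 and Ceacam20 and for Umod Cyp4a2, Hao2 and Miox, at r from 0.9996 to 0.9998. For Kcnj1 they were Slc4a9, Bsnd and Rhcg at r from 0.9997 to 0.9998, of which Bsnd encodes barttin. Slc12a3 was closest to Slc30a2, Gsta5 and Asb9 (r = 0.98). Scnn1b was closest to Ildr1, Scnn1g and Ly6al, Scnn1g to Kdf1, Ildr1 and Marveld3, and Scnn1a to Cldn7, Fam3d and Tmem184a, with r from 0.989 to 0.9967. Ildr1, Marveld3 and Cldn7 encode tight junction proteins. Klhl3 was closest to LOC102549506 (r = 0.99), then Sgpp2 and Atp6v0c (r = 0.95). Wnk1 had the lowest values, 0.95 for Cldn17 and Ascl4 and 0.94 for Mcoln3. Among the members themselves Scnn1b and Scnn1g had r of 0.994, Slc12a1 and Kcnj1 0.997, and Klhl3 and Scnn1a 0.441.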

How the data were processed

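Per the labels' protocols, single-end 50-base reads came from a BGISEQ-500. Per the submitters' processing notes, HISAT2 2.0.4, Bowtie2 2.2.5 and the build Rnor_6.0 were used. How reads were counted is not given in the sources used, so reads of overlapping or near-identical genes cannot be told apart. The authors deposited FPKM per gene and library, relative to each library's total, with 2 decimals. Read totals are unknown, and a change in abundant transcripts moves all other values.

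All 45 libraries and 20794 genes were used, grouped by tissue and arm from the titles. The design gives 3 rats per arm. Tests were made with limma 3.58.1 in R 4.3.3 on log2(FPKM + 1), moderated with an intensity trend, per tissue and 3 against 3, for genes whose mean reached 1 FPKM in an arm, with Benjamini-Hochberg adjustment at 0.05. They were checked on simulated data. The ratio of cotransporters was tested by exact permutation. The genes, lists and tests were chosen with earlier results of these data known. Named from the other lists of renal genes were those with an unadjusted p under 0.05 in kidney. The results of some of these genes are not reported here. Other genes given with values (Cldn10, Egf, S100g, Wnk4, Oxsr1, Cul3, Klhl2, Sgk1, Tsc22d3, Prss8, Nedd4l, Cryab) were chosen after their values were seen. So were Cldn16, Cldn19, Casr and Slc6a6. Alternatives were no filter, a filter at 5 FPKM, a pseudocount of 0.1, quantile and median-ratio scaling, all tissues in 1 fit, the replicate block and leaving out each library. Deviations from the arm means correlated within every pair of the same number in lung (r = 0.227, 0.303 and 0.346). Lung numbers were therefore also treated as pairs, from the data alone and not from the design. For brown fat, with r of 0.1, 0.397 and 0.055, paired values are not given above. Vehicle atrium was not analysed here.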

Additional observations from a re-analysis of the deposited data

Results flagged for a closer look

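The kidney change minus the mean change of the other 6 tissues was 0.94 for Kcnj1 and 1.76 for Klhl3 on the log2 scale, a difference between tissues that passed in the model pooling the spread over tissues. Neither passed with a pseudocount of 0.1 (limma adjusted p-values of 0.978 and 0.29), and neither was called in kidney alone. The levels behind it in kidney were 2.04-fold and 4.48-fold higher as ratios of means, higher in 3 of 3 treated libraries than in any vehicle library.

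Slc12a3 had a mean of 4.3 FPKM (SD 1.28, n = 3) in the atrium libraries of treated rats, which enter no comparison. In V libraries of the same arm it was 0.80, 1.34 and 1.33 FPKM, and in vehicle V libraries the highest value was 0.72 FPKM.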

How the results depend on the processing

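Over 52 results and 556 alternative values, 505 kept their direction and side of the threshold, 14 changed sign, 28 gained a call or count, 6 lost one and 3 counts of list genes moved by over 1.5 times. With all tissues in 1 fit the kidney relative log2 changes called were 0.92 for Kcnj1, 1.67 for Klhl3, 1.29 for Scnn1a, 1.44 for Scnn1b, 1.13 for Scnn1g and 1.36 for Wnk1, 6 members in all. For the difference of kidney from the other tissues, a pseudocount of 0.1 gave 0.72 for Kcnj1, 2.03 for Klhl3 and 0 members called. Quantile normalization gave 4 members, adding 1.39 for Scnn1b and 1.36 for Wnk1, and median-ratio scaling added Wnk1 at 1.24. Over all 16822 genes, these 2 settings called 137 and 146. White fat Scnn1a turned to -0.0142 with no filter and -0.0170 with a pseudocount of 0.1. The cause was not tested.

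Leaving out 1 library at a time, the kidney changes ranged from 0.75 to 1.01 for Kcnj1, 1.30 to 2.02 for Klhl3, 0.90 to 1.82 for Scnn1a, 1.06 to 1.99 for Scnn1b, 0.77 to 1.66 for Scnn1g, -0.63 to 0.21 for Slc12a1, -0.91 to -0.42 for Umod, 0.70 to 2.19 for Slc12a3 and 0.85 to 1.80 for Wnk1. Members called in kidney ranged from 0 to 7 and those at an unadjusted p under 0.05 from 2 to 8. Over all genes tested, those called ranged from 0 to 636 and those at an unadjusted p under 0.05 from 631 to 3908. The difference from other tissues ranged from 0.79 to 1.82 for Scnn1a, 1.08 to 2.04 for Scnn1b, 0.74 to 1.73 for Scnn1g, -0.55 to 0.26 for Slc12a1, 0.63 to 2.23 for Slc12a3 and 0.80 to 1.86 for Wnk1, with 2 to 8 members called. Over all genes tested, those called for this difference ranged from 33 to 714. In other tissues the ranges were -0.19 to 0.0451 for V Wnk1, -0.0605 to 0.17 for brown fat Wnk1 and -0.15 to 0.40 for lung Scnn1a. They were -0.0581 to 0.0128 for lung Wnk1, -0.11 to 0.30 for white fat Scnn1a and -0.31 to 0.23 for white fat Wnk1. Umod in V is left out, as it reached the level required in the treated arm alone. The gene counts of the medulla list went from 3 to 1 higher without empagliflozin library 2 or vehicle library 2, and that of the proximal tubule list from 1 to 2 without empagliflozin library 2.

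With the replicate block, 0 members were called in kidney, 6 had an unadjusted p under 0.05, and the difference of Kcnj1 from other tissues was 0.94. Over all 12848 genes tested in kidney, 1199 had an unadjusted p under 0.05 with the block. The log2 ratio of the cotransporters was 1.53 with an exact permutation p of 0.5 over the 3 pairs. The block changed no call of a member in any tissue, lung included. In kidney the numbers did not pair the libraries (r = -0.068, -0.362 and 0.163). Read depth is unknown, so the precision of values near 0 cannot be given.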
